A study of Mus musculus with 4 samples.

Results

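The neurons described here are olfactory sensory neurons of the mouse nose that had chosen either of the neighbouring odorant receptor genes Olfr726 and Olfr727. A barcode, which stands for 1 captured cell, was a member when it had at least 500 detected genes, at most 10% of its molecules from mitochondrial genes, at least 5 molecules of Omp and at most 15 of Cyp2g1. Omp marks mature olfactory neurons and Cyp2g1 the supporting sustentacular cells. The top odorant receptor of the barcode also had to be Olfr726 or Olfr727, with at least 3 molecules and at least 80% of all receptor molecules. Molecules were counted as unique molecular identifiers (UMIs). The rule found 149 Olfr726 neurons and 192 Olfr727 neurons, 341 in all, among 17891 barcodes assigned to 1 receptor in the same way and 41911 barcodes in the series. The other 17550 assigned barcodes had chosen another receptor and served as the comparison.

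The series holds 4 single-cell libraries of main olfactory epithelium dissociated with papain, 2 labelled female and 2 labelled male, read from the 5′ end of transcripts. All mice were wild type, of strain C57BL/6J and 3 months old, so the groups share genotype and age and differ in sex. The title of the series concerns neurexins, presynaptic adhesion proteins, and the targeting of olfactory axons. Nothing in the labels ties each library to a separate animal, so p-values measure only the spread between these libraries, which may be technical.

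Library depth lay between 100725429 and 111577458 UMIs over 10256 to 10777 barcodes. Library pairs shared 136 to 172 barcode sequences. Y-linked genes had 0 and 1 UMIs in the female libraries and 13693 and 13758 in the male ones, as their labels say. The members numbered 111 and 100 in the female libraries and 73 and 57 in the male libraries. Doublets were scored but kept in the counts, and the scores marked 1 to 3 Olfr726 barcodes and 1 to 4 Olfr727 barcodes in a library. Values listed by library are in the order female 1, female 2, male 1, male 2.

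An olfactory sensory neuron transcribes 1 allele of 1 odorant receptor gene out of a very large family and silences the rest. The receptor fixes which odours the neuron detects through a cyclic AMP cascade in its cilia. It also sets levels of guidance and adhesion molecules that sort the axon to a glomerulus in the olfactory bulb, where axons of neurons with the same receptor meet.

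Olfr726 and Olfr727 are close copies, and their sequences show how little separates them. Their coding sequences were identical at 93.1% of 972 aligned columns, 9 of them gaps, while the median identity to other receptors was 53.7% for either gene. The first 150 coding bases are shown because the 4 differences in them, in capitals, are what separates the start of the receptors. They were read from GENCODE M21 on GRCm38, 5′ to 3′.
Olfr726: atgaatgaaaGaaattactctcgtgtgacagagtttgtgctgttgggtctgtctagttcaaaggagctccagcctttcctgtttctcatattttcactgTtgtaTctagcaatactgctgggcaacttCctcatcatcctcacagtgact
Olfr727: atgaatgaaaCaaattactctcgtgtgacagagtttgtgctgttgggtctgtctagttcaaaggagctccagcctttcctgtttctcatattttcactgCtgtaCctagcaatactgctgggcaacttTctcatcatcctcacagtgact

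Olfr726 (ENSMUSG00000060523) is annotated at chr14:50083570-50090953 on the minus strand with a coding length of 963 bases. Olfr727 (ENSMUSG00000059488) lies at chr14:50123186-50128746 on the plus strand with 972 coding bases. The genes are transcribed away from each other from starts 32.2 kb apart. Olfr725, whose start is 50.6 kb from that of Olfr726 on the other side, was 95.95% identical to Olfr726 and 91.67% identical to Olfr727.

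The pair was chosen often and its closest copy seldom. By number of neurons Olfr727 ranked 4 and Olfr726 ranked 6 of 960 receptors found in assigned barcodes, while Olfr725 was chosen by 14 neurons. Olfr728, on the far side of Olfr727 with its start at 51.7 kb, had 145 neurons and was 61.8% identical to Olfr726. The next highest number around the pair was 133 neurons of Olfr741 at 381.8 kb. These 3 adjacent genes thus stood above every other receptor gene plotted between Olfr722 and Olfr750.

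**Figure D1:**
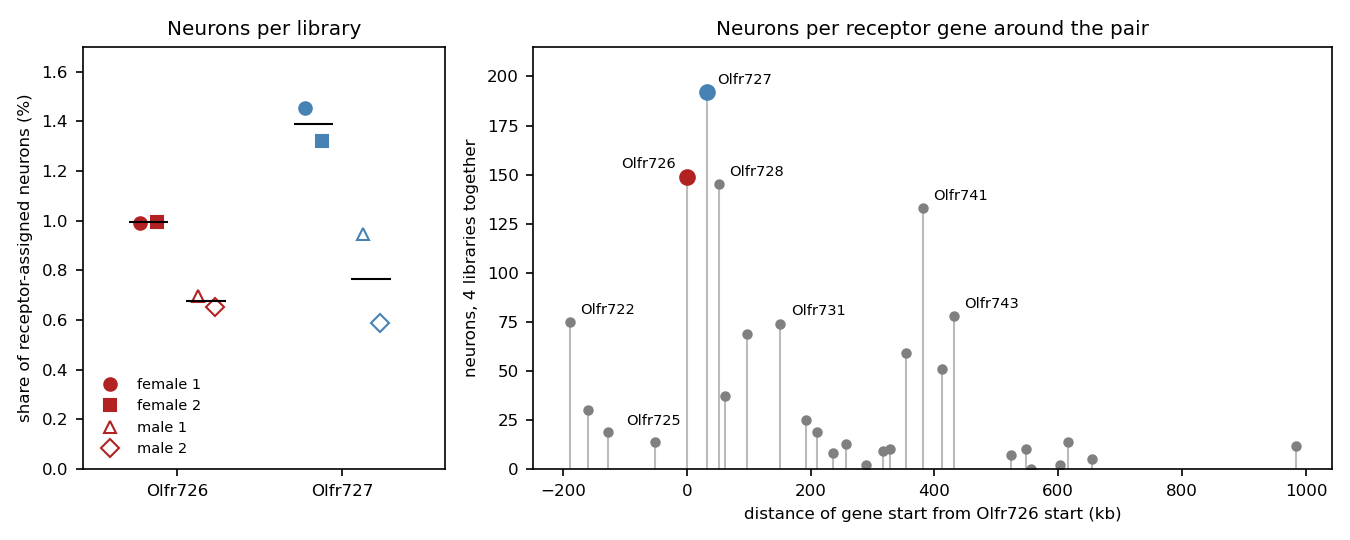
Left, share of receptor-assigned neurons (%) that chose Olfr726 or Olfr727 in each library, with filled symbols for females, open symbols for males and a black line at the mean of each sex. Right, neurons per receptor gene (4 libraries together) against the distance of its start from that of Olfr726 in kb, where Olfr726 (149), Olfr727 (192) and Olfr728 (145) stand highest.

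Olfr726 or Olfr727 was the top receptor of 770 barcodes. Of these, 259 had under 3 receptor UMIs, 10 failed on genes or mitochondrial share, 82 had too little Omp, 45 too much Cyp2g1 and 33 too low a receptor share. The lowest receptor share inside the rule was 82.4% for Olfr726 and 81.1% for Olfr727, and the highest outside was 77.5% and 75%. The lowest receptor count of a member was 5 UMIs for either receptor, and the lowest Omp count was 5 UMIs, at the limit of the rule.

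Each member held a large amount of its own receptor RNA. The median per neuron was 69, 58, 80 and 61.5 UMIs of Olfr726 and 106, 106, 120.5 and 108 UMIs of Olfr727. Neurons of other receptors had a median of 67, 60, 61 and 56.5 UMIs of theirs. The Olfr727 medians stood above those of both other groups in every library, at median depths of 8555 to 10239 UMIs against 8702 to 9696 for Olfr726 and 7758.5 to 8581 for the others. These values chose the members and are given as a description.

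Few members held a UMI of the other receptor of the pair. A UMI of Olfr727 appeared in 3 of 149 Olfr726 neurons (2.01%, exact binomial 95% interval 0.417% to 5.77%). A UMI of Olfr726 appeared in 3 of 192 Olfr727 neurons (1.56%, exact binomial 95% interval 0.323% to 4.50%). Intervals cover counting error only. The rule itself limits these counts, since a member's own receptor had to hold at least 80% of its receptor UMIs, so the shares are a description. Of the 33 barcodes left out for receptor share, 0 reached 80% with both receptors of the pair together. Neurons of other receptors had a UMI of Olfr726 in 1.33% and of Olfr727 in 2.61% of barcodes. Barcodes with over 15 Cyp2g1 UMIs and under 5 of Omp, which should lack both receptors, had them in 1.92% and 3.96%, at library medians of 13239.5 to 13711 UMIs. The share of Olfr726 neurons with a UMI of Olfr727 was below both of these shares, with an interval that spans both. That of Olfr727 neurons with a UMI of Olfr726 lay between them, also with an interval that spans both. How reads that fit both genes were treated is not given in the sources used here.

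Markers of mature neurons went with the label. Levels are in CPM, counts per 1000000 UMIs of all genes in the sum of a group's barcodes in 1 library. The summed level of Cnga2, Gng13, Stoml3 and Adcy3 was 18340 to 21600 CPM in Olfr726 neurons, 23760 to 28420 in Olfr727 neurons and 16090 to 17590 in neurons of other receptors. Of 8 basal cell markers, 4 were at 0 in Olfr726 neurons, Krt15 and Mki67 among them, and Krt14 and Trp63 in Olfr727 neurons, with sums of up to 13.6 and 294 CPM. The others had basal sums of 33.5 to 60.5 CPM. Olfr727 neurons of female 1 (293.7 CPM) and male 1 (87.7 CPM) lay above these, and all further libraries of the pair below. All 6 sustentacular markers were detected, at 362 to 2735 CPM in Olfr726 neurons, 392.1 to 2051 in Olfr727 neurons and 634 to 869 in the others. Of 10 immune and blood markers, 6 were at 0 in Olfr726 neurons and 3 in Olfr727 neurons, and sums ran from 17.0 to 799.7 and from 18.8 to 696.5 CPM. Immune and blood sums of the others were 180.4 to 378.9 CPM. Female 2 of either receptor (799.7 and 584.4 CPM) and male 1 of Olfr727 (696.5 CPM) lay above these, and all further libraries of the pair below.

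Fewer neurons chose the pair in the male libraries. Olfr727 took 1.46% and 1.32% of the assigned neurons of the females (mean 1.39% ± 0.0964, SD, n = 2) and 0.946% and 0.587% of the males (0.766% ± 0.254, SD, n = 2). Olfr726 took 0.993% and 0.996% in females (0.994% ± 0.00204, SD, n = 2) and 0.698% and 0.652% in males (0.675% ± 0.0326, SD, n = 2). Neither receptor's values overlapped between the sexes. A two-sided exact permutation test gave p = 0.33 for each receptor, the smallest value that 2 libraries against 2 can give.

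The same numbers were placed against all receptors with at least 20 neurons. edgeR's quasi-likelihood test gave Olfr727 a log2 male-to-female change of -0.86 ± 0.22 (SE), with the lowest unadjusted p of 260 receptors (0.00166) and an adjusted p of 0.224 after Benjamini-Hochberg adjustment. For Olfr726 edgeR gave -0.56 ± 0.20 (SE) and an adjusted p of 0.489. Adjacent Olfr728 had -0.01 ± 0.24 (SE), with 41, 31, 43 and 30 neurons. In all, 0 of 260 receptors passed edgeR at an adjusted p of 0.05 and 21 had an unadjusted p under it, so the lower numbers in males did not hold after correction.

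Olfr726 and Olfr727 neurons differed from each other in adhesion, guidance and transduction genes. S100a5, a calcium-binding protein of active neurons, and the adhesion genes Kirrel2 and Kirrel were higher with Olfr726. The protocadherin Pcdh7, the guidance receptor Nrp1, the adhesion gene Kirrel3 and 6 genes of odour transduction were higher with Olfr727. Of 7486 genes tested, which leave out receptors and the genes used by the rule, 94 (1.26%) passed edgeR's quasi-likelihood test on sums per library with the library as a block at a Benjamini-Hochberg adjusted p of 0.05. Of these, 38 (0.508%) were higher in Olfr726 neurons and 56 (0.748%) in Olfr727 neurons. The CPM of the receptors did not overlap over the 4 libraries in 439 genes (5.86%). With no scaling beyond the total, the split was 55 and 50. The fit also held the pooled sums of other receptors, and its estimate of spread was shared with them. An edgeR fit of the sums of Olfr726 and Olfr727 alone called 47 genes.

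**Figure D2:**
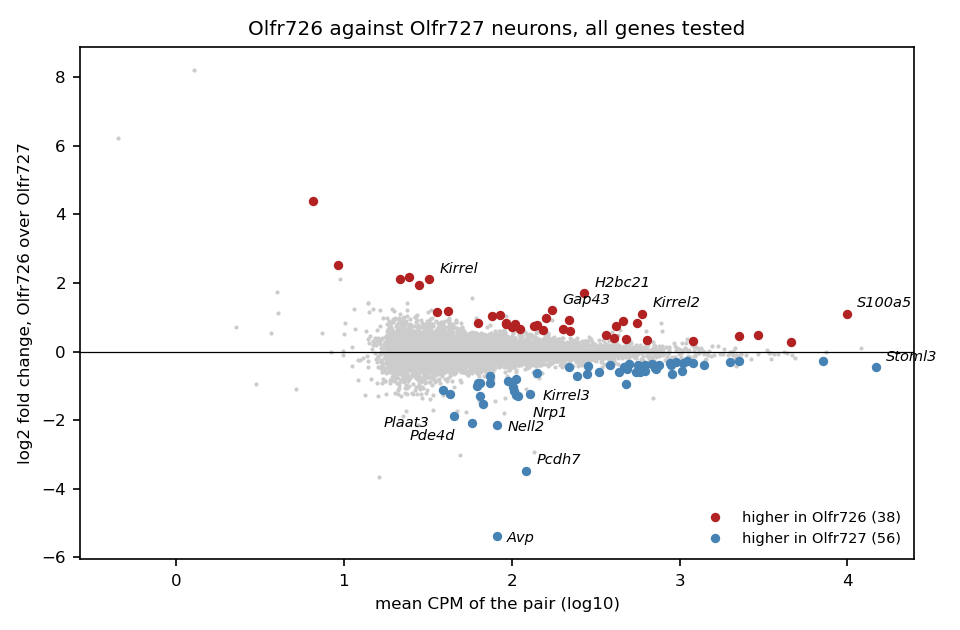
Fitted log2 fold change of Olfr726 over Olfr727 neurons (vertical axis) against the mean CPM (horizontal axis, log10) for the 7486 genes tested, 1 point a gene. Coloured points are the 38 genes higher in Olfr726 neurons and the 56 higher in Olfr727 neurons at an edgeR adjusted p under 0.05. S100a5 and Stoml3 lie far to the right among the labelled genes, and Pcdh7 and Avp far below 0.

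S100a5 encodes a calcium-binding protein whose transcript depends on odour-driven activity in these neurons. Its CPM were 11723, 12651, 17551 and 12843 in Olfr726 neurons and 6724, 5235, 6477 and 6204 in Olfr727 neurons. Every Olfr726 library lay above every Olfr727 library, and the log2 difference was 1.11 ± 0.08 (SE, edgeR adjusted p = 7.0e-08). Other receptors together had 11151 to 17320 CPM. Pcp4l1 had 2969, 3573, 3845 and 3544 CPM with Olfr726 and 2500.3, 2468, 2344 and 2312 CPM with Olfr727. The groups did not overlap (log2 0.49 ± 0.07, SE, edgeR adjusted p = 0.000688). Calb2, the calcium buffer calretinin, did not pass, at 245 ± 94.3 CPM against 159.6 ± 85.3 CPM (SD, n = 4 each). Another fit gave each of the 69 receptors with at least 10 neurons in every library its own sum. It also used a single dispersion, a measure of spread set from the most abundant genes, for every gene. With every receptor as its own sum in this way, the Pcp4l1 call was lost (edgeR adjusted p = 0.486) at an unchanged log2 difference of 0.49.

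Of 12 genes of axon sorting and adhesion, 11 were tested, 1 was higher with Olfr726 and 3 with Olfr727, at a median log2 difference of 0.15 beside -0.000193 over all genes. Kirrel2 and Kirrel3 encode homophilic adhesion proteins whose levels follow neuronal activity. Kirrel2 had 978, 1004, 750 and 556 CPM with Olfr726 and 525, 350.3, 321 and 301 CPM with Olfr727 (log2 1.10 ± 0.11, SE, edgeR adjusted p = 1.2e-05). Kirrel3 went the other way, with 86.8, 51.7, 109 and 58.1 CPM against 141, 178, 170 and 230.3 CPM (log2 -1.23 ± 0.20, SE, edgeR adjusted p = 0.00201). In both genes the groups did not overlap. Kirrel, of the same family and outside the list, had 52.6, 59.1, 50.9 and 50.8 CPM with Olfr726 and 10.1, 14.5, 19.2 and 0 CPM with Olfr727 (log2 2.11 ± 0.32, SE, edgeR adjusted p = 0.00107). The Kirrel call was lost when barcodes were thinned to 4000 UMIs (edgeR adjusted p = 0.218).

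Pcdh7, a protocadherin, had the widest difference of the list. It was low in every library of Olfr726 neurons at 7.89, 22.1, 30.5 and 25.4 CPM and high in every library of Olfr727 neurons at 223, 247, 203 and 211 CPM (log2 -3.48 ± 0.23, SE, edgeR adjusted p = 5.8e-08). Other receptors together had 66.9 to 84 CPM, between the receptors of the pair. Among the 69 receptors, Olfr726 ranked 35 and Olfr727 ranked 9 from the top, at a median of 19.5 CPM over the 67 others. Efna3, a ligand of Eph receptors, had 413, 349, 326 and 290.5 CPM with Olfr726 and 513, 548, 403 and 625 CPM with Olfr727 (log2 -0.61 ± 0.11, SE, edgeR adjusted p = 0.00596). Olfr727 was higher in each library, with overlap across libraries, and without female 2 the Efna3 call was lost (edgeR adjusted p = 0.0515). The other 7 genes tested did not pass, among them Pcdh10 at 64.8 ± 8.88 against 57.6 ± 6.22 CPM (SD, n = 4 each).

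Of 9 axon guidance genes tested, 1 passed between the receptors, at a list median of -0.07. This was Nrp1, neuropilin 1, a receptor for secreted semaphorins whose level in these axons follows cyclic AMP signalling during development. Nrp1 had 55.2, 49.2, 88.2 and 65.4 CPM with Olfr726 and 156, 132, 154 and 169 CPM with Olfr727 (log2 -1.29 ± 0.17, SE, edgeR adjusted p = 0.000261), without overlap. Sema6c, a transmembrane semaphorin outside the list, had 39.4, 41.8, 20.4 and 47.2 CPM against 72.2, 99.8, 90.5 and 108 CPM (log2 -1.30 ± 0.24, SE, edgeR adjusted p = 0.00703). The Sema6c call was lost without female 2 (edgeR adjusted p = 0.0528) and without male 1 (0.0578). Plxna1, a plexin that forms semaphorin receptors with neuropilins, did not pass, at 20.2 ± 3.40 CPM with Olfr726 and 7.64 ± 4.13 CPM with Olfr727 (SD, n = 4 each, edgeR adjusted p = 0.0986), although its groups did not overlap.

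Odour transduction and receptor transport held the most calls of the lists compared, and was also the list with the most genes tested. Shorter lists had larger shares, such as 3 of 8 immature neuron genes and 2 of 3 genes of the list of S100a5, Pcp4l1 and Calb2. Over all genes, 1.26% passed. Of 18 genes tested, 6 were higher with Olfr727 and 0 with Olfr726, at a list median of -0.23, and 12 had an unadjusted edgeR p under 0.05. Stoml3, a stomatin-like protein of these neurons, had 12078, 12414, 12678 and 13333 CPM with Olfr726 and 16324, 16328, 16455 and 18710 CPM with Olfr727 (log2 -0.45 ± 0.05, SE, edgeR adjusted p = 1.9e-05). Cnga4, a subunit of the cyclic nucleotide-gated channel, had 442, 541, 553 and 490.2 CPM against 730, 704, 746 and 775 CPM (log2 -0.57 ± 0.08, SE, edgeR adjusted p = 0.000714). Neither gene overlapped between the receptors. Pde4a, a phosphodiesterase that breaks down cyclic AMP, had 1226 ± 38.4 against 1571 ± 113 CPM (SD, n = 4 each, edgeR adjusted p = 0.00703), and its call was lost with every receptor as its own sum (edgeR adjusted p = 0.152).

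The other 3 calls of that list depended on single libraries. They were the channel subunits Cnga2 (1070.1 ± 125 with Olfr726 against 1329 ± 81.7 CPM with Olfr727) and Cngb1 (399.9 ± 31.3 against 539.5 ± 52.3 CPM), and the adenylyl cyclase Adcy3 (1800.1 ± 128 against 2169 ± 205 CPM, all SD, n = 4). By edgeR, Adcy3 lost its call without any 1 of the 4 libraries (adjusted p 0.0515 to 0.147). Cnga2 lost it without female 2 (edgeR adjusted p = 0.166) or male 1 (0.154). Cngb1 lost it without female 2 (edgeR adjusted p = 0.0844), male 1 (0.112) or male 2 (0.0801).

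Genes of immature neurons and the mitochondrial share moved with these groups. Of 8 immature genes, 3 were higher with Olfr726 (Gap43, Stmn4 and Tubb3) and 0 with Olfr727. Their summed level was 1985 to 2520 CPM with Olfr726, 1217 to 1759 with Olfr727 and 1966 to 2179 with other receptors. Gap43, a protein of growing axons, had 281, 239, 166 and 323 CPM with Olfr726 and 136, 116, 112 and 14.1 CPM with Olfr727 (log2 1.20 ± 0.24, SE, edgeR adjusted p = 0.0143), and DESeq2 did not call it (adjusted p = 0.163). The tubulin gene Tubb3 lost its call without female 1 (edgeR adjusted p = 0.104) or female 2 (0.127). With every receptor as its own sum, edgeR called none of Gap43 (adjusted p = 0.585), Stmn4 (0.205) and Tubb3 (0.496). The median mitochondrial share was 1.71% to 2.05% in Olfr726 neurons, 2.24% to 2.96% in Olfr727 neurons and 1.59% to 1.88% in the others. The part of either in the differences between the receptors was not tested.

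Other genes were named for a large fold change among called genes. H2bc21 also belongs to a list of receptor-dependent markers chosen on these libraries, so its naming was not independent of them. H2bc21, a histone gene, had 455, 421, 380.1 and 392 CPM with Olfr726 and 129, 94.4, 151 and 132 CPM with Olfr727 (log2 1.71 ± 0.12, SE, edgeR adjusted p = 5.9e-08). Cd9, a tetraspanin, had 607 ± 67.4 against 313 ± 70.2 CPM, and Ly6h 118 ± 10.1 against 52.5 ± 8.32 CPM (SD, n = 4 each). These 3 genes were higher with Olfr726 without overlap. The call of Ly6h was lost (edgeR adjusted p = 0.438) when barcodes were thinned to 4000 UMIs.

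Higher with Olfr727 was Nell2, a secreted ligand of the receptor Robo3, at 21, 27.1, 23.8 and 54.5 CPM with Olfr726 and 107, 136, 162 and 122 CPM with Olfr727 (log2 -2.14 ± 0.27, SE, edgeR adjusted p = 0.000228). Pde4d, another cyclic AMP phosphodiesterase, had 26.3, 19.7, 30.5 and 14.5 CPM against 95.7, 107, 107 and 61.1 CPM (log2 -2.09 ± 0.26, SE, edgeR adjusted p = 0.000228). Neither overlapped. Plaat3 (19.7 ± 5.08 against 70.9 ± 14.3 CPM) and Dap (64.6 ± 8.50 against 141 ± 13.3 CPM, SD, n = 4 each) passed in the same direction, and Olfr727 neurons held the highest level of either gene among 69 receptors with at least 10 neurons in every library. The Dap call was lost when barcodes were thinned to 4000 UMIs (edgeR adjusted p = 0.0668).

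Several calls among the named genes were lost without a library. They were Arhgef38 without any 1 of the 4 (edgeR adjusted p 0.0509 to 0.162), Metrnl without female 1 (0.0834), female 2 (0.0658) or male 1 (0.0955), and Heg1 without female 1 (0.11), female 2 (0.0596) or male 2 (0.0778). Spg7 lost its call without female 1 (edgeR adjusted p = 0.133), male 1 (0.227) or male 2 (0.196), and Sertad1 without female 1 (0.11). Ncam2, an adhesion gene of ventral zones, had 185 ± 8.68 CPM with Olfr726 against 122 ± 15 CPM with Olfr727 (SD, n = 4 each), and its call was lost without female 1 (edgeR adjusted p = 0.11), female 2 (0.107) or male 1 (0.0538).

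**Figure D3:**
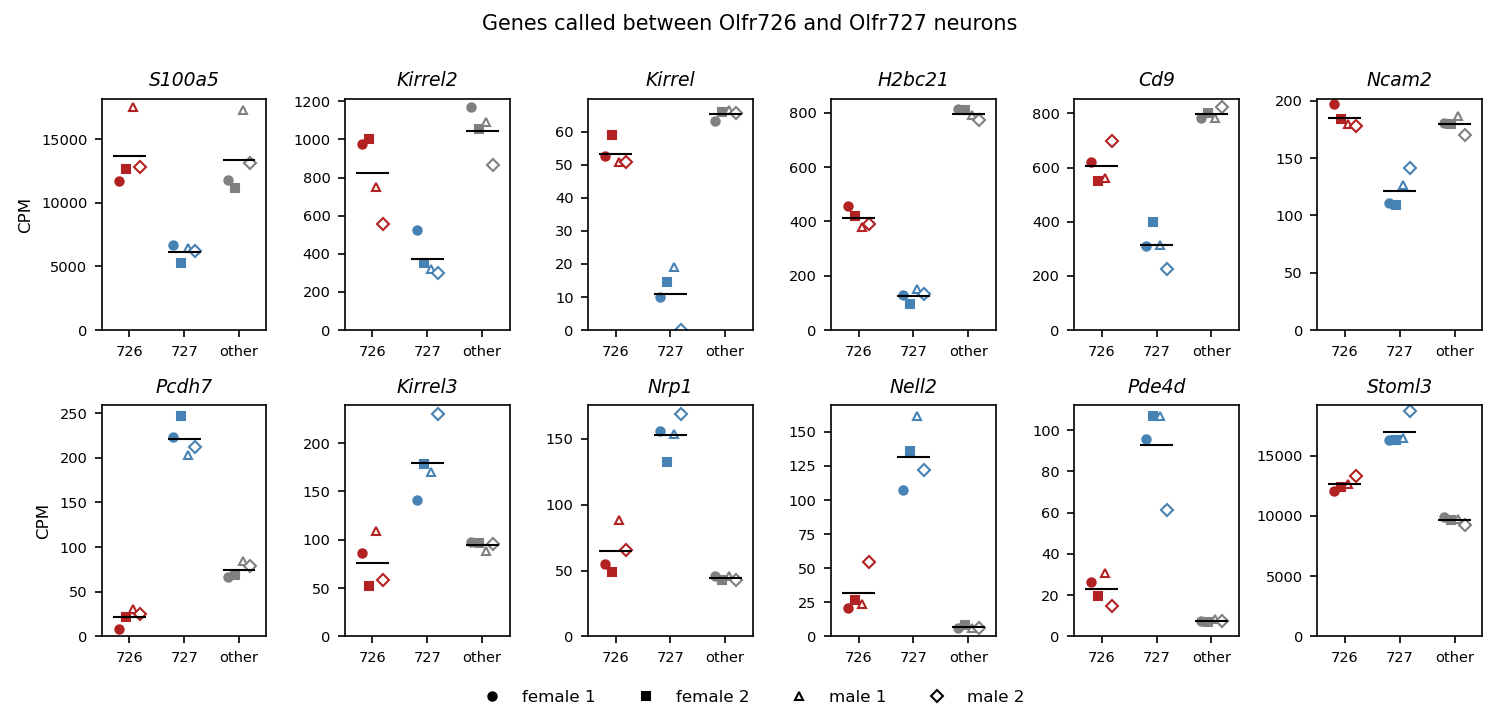
CPM (vertical axis, from 0) of 12 genes called between the receptors, in Olfr726 neurons, Olfr727 neurons and pooled neurons of other receptors, 1 symbol a library and a line at the mean. In each panel the symbols of Olfr726 and Olfr727 occupy separate ranges, as for Pcdh7 at 7.89 to 30.5 against 203 to 247 CPM.

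Synaptic organisers, which include the neurexins, gave no call between the receptors. Of 13 tested, 0 passed edgeR, 2 had an unadjusted p under 0.05 and DESeq2 called 1. Nrxn2 had 34.2, 12.3, 10.2 and 29 CPM with Olfr726 and 25.2, 27.2, 27.4 and 32.9 CPM with Olfr727, with overlapping ranges (log2 -0.40 ± 0.35, SE, edgeR adjusted p = 0.764). Nrxn3 had 1 UMI in 1 library of either receptor and 0 in the others, so no difference was detectable at this depth. Of 8 transcription factors of olfactory neurons, 0 passed edgeR, 1 had an unadjusted p under 0.05 and DESeq2 called 1. Lhx2, which helps set up receptor choice, had 346 ± 58.7 against 343 ± 38.8 CPM (SD, n = 4 each).

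Set against all other receptors together, the mean of the pair was higher in the keratin gene Krt25, the ciliary rootlet gene Crocc, 10 of 18 transduction genes and the guidance genes Nrp2, Plxna3 and Slit1. It was lower in Cartpt, Plxna1, Robo2 and Mfge8. With the mean of the pair against the pool, 880 of 7486 genes (11.8%) passed edgeR at an adjusted p of 0.05, 460 (6.14%) higher and 420 (5.61%) lower. Values of the pair and the pool did not overlap in 504 genes (6.73%). Side by side, 352 genes (4.70%) separated Olfr726 from the pool, 193 (2.58%) higher and 159 (2.12%) lower, and 881 (11.8%) separated Olfr727, 476 (6.36%) higher and 405 (5.41%) lower. Both counts use the same pool.

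The pool weights each receptor by its number of neurons, so genes are also placed among 69 receptors, each counted once. These 69 had at least 10 neurons in every library and 6181 of the 17891 assigned neurons. They are frequently chosen receptors, so the ranks leave out the rarer ones of the pool. Krt25 had 31.6, 36.9, 23.8 and 50.8 CPM in Olfr726 neurons, 95.7, 105, 115 and 79.9 in Olfr727 neurons and 2.93 to 3.80 in the pool (log2 4.11 ± 0.22, SE, edgeR adjusted p = 2.3e-10). Among the 69, Olfr726 ranked 5 and Olfr727 ranked 1 from the top. Crocc, which encodes rootletin, had 145, 189, 251 and 167 CPM with Olfr726, 307, 289, 288 and 324 with Olfr727 and 56.8 to 68.9 in the pool (log2 1.87 ± 0.10, SE, edgeR adjusted p = 1.9e-10), at ranks 6 and 1. Neither gene overlapped between the pair and the pool. Between the receptors, the Krt25 difference of -1.54 ± 0.27 lost its call without female 2 (edgeR adjusted p = 0.0548) or male 1 (0.0922).

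Fndc1 had 51.8 ± 11.5 CPM with Olfr726 and 79.9 ± 21.9 with Olfr727 against 6.33 ± 0.336 in the pool, and Fmn1, a formin of the actin skeleton, 72.7 ± 19 and 76.7 ± 26 against 10.8 ± 3.33 CPM (SD, n = 4 each). Pde7b, a cyclic AMP phosphodiesterase, had 607 ± 29.8 and 845 ± 67.5 CPM against 270.3 ± 14.2 CPM (log2 1.42 ± 0.06, SE, edgeR adjusted p = 2.1e-11). Cidea, a lipid droplet protein, had 458 ± 52.8 and 563 ± 68.8 CPM against 159.6 ± 5.78 CPM (log2 1.67 ± 0.08, SE, edgeR adjusted p = 4.7e-11). Pde7b and Cidea come from a list of receptor-dependent markers chosen on these libraries, of which 5 of 10 were higher and 4 lower in the pair, so the list is not independent evidence.

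Of the 18 transduction and transport genes, 10 were higher and 1 lower in the pair than in the pool, at a list median of 0.22 beside 0.01 over all genes. Ano2, the calcium-activated chloride channel that amplifies the odour response, had 373, 266, 343 and 352 CPM with Olfr726, 418, 338, 485 and 470 with Olfr727 and 139.9 to 174 in the pool (log2 1.25 ± 0.08, SE, edgeR adjusted p = 1.2e-09). The pair lay above the pool in every library, at ranks 8 and 1 of 69. The log2 difference was 0.85 ± 0.06 for Pde4a, 0.61 ± 0.04 for Stoml3, 0.55 ± 0.06 for Pde1c, 0.44 ± 0.07 for Cngb1, 0.43 ± 0.06 for Ric8b and 0.37 ± 0.06 for Adcy3 (SE). Rtp1, which helps bring receptors to the cell surface, was lower at -0.27 ± 0.07 (SE).

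The smallest differences of the list depended on single libraries. Cnga2 (0.26 ± 0.06) lost its call without male 1 (edgeR adjusted p = 0.0574) or male 2 (0.0561), and Rtp1 without female 2 (0.0673). Cnga4 (0.26 ± 0.06) lost it without female 2 (edgeR adjusted p = 0.0701), male 1 (0.0872) or male 2 (0.0537). Gng13 (0.17 ± 0.05, all log2 and SE) lost it without female 2 (edgeR adjusted p = 0.146), male 1 (0.0812) or male 2 (0.171). Side by side, 5 genes of the list were higher and 1 lower in Olfr726 neurons against the pool, and 11 higher and 1 lower in Olfr727 neurons. In Olfr726 neurons alone edgeR called none of Cnga4 (-0.03 ± 0.08, adjusted p = 0.916), Cnga2 (0.09 ± 0.07, 0.615), Gng13 (0.07 ± 0.05, 0.564), Cngb1 (0.22 ± 0.08, 0.176) or Adcy3 (0.22 ± 0.07, 0.058). In Olfr727 neurons the values of these 5 genes were 0.54 ± 0.07, 0.44 ± 0.07, 0.26 ± 0.05, 0.66 ± 0.08 and 0.52 ± 0.06 in the same order, each called (all log2 and SE).

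Of 9 guidance genes tested, 5 were higher and 3 lower in the pair than in the pool. Nrp2, neuropilin 2, had 268, 362, 234 and 272 CPM with Olfr726, 274, 370.3, 356 and 343 with Olfr727 and 125 to 152 in the pool (log2 1.14 ± 0.09, SE, edgeR adjusted p = 1.8e-08). Plxna3, a plexin that partners it, had 217 ± 14.4 and 283 ± 49.4 CPM against 133 ± 3.01 CPM, and Slit1, a ligand of Robo receptors, 75.3 ± 4.65 and 94.6 ± 31.7 against 41.2 ± 1.59 CPM (SD, n = 4 each). None of these overlapped the pool. Nrp1 was higher in the pair at log2 1.15 ± 0.11 (SE), made of 0.50 ± 0.16 for Olfr726 (edgeR adjusted p = 0.0959) and 1.79 ± 0.12 for Olfr727 (3.1e-09). Plxna4 lost its call without any 1 library (edgeR adjusted p 0.153 to 0.189).

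The lower guidance genes were Plxna1, Robo2 and Sema7a. Plxna1 had 21, 24.6, 17 and 18.2 CPM with Olfr726, 6.71, 5.45, 13.7 and 4.70 with Olfr727 and 87.2 to 94.1 in the pool (log2 -2.87 ± 0.16, SE, edgeR adjusted p = 2.3e-10). Robo2, a receptor for Slit proteins, had 23.7, 12.3, 6.79 and 21.8 CPM with Olfr726, 6.71, 7.26, 35.6 and 4.70 with Olfr727 and 92.4 to 102 in the pool (log2 -2.73 ± 0.21, SE, edgeR adjusted p = 3.2e-08). The pair ranked 61 and 68 of 69 for Plxna1 and 55 and 56 for Robo2. Sema7a, an axonal semaphorin, had 334 ± 44.9 and 247 ± 43.9 CPM against 467 ± 21.7 CPM (SD, n = 4 each), and no value of the pair reached the pool in any of the 3 genes.

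Zone markers and factors of the nuclear factor I family split 3 higher and 3 lower of 7 tested. Nfia, a transcription factor of that family, had 78.9, 88.6, 50.9 and 36.3 CPM with Olfr726, 97.3, 67.2, 68.5 and 56.4 with Olfr727 and 23.6 to 30.6 in the pool (log2 1.35 ± 0.13, SE, edgeR adjusted p = 5.2e-07), without overlap. Nfix (0.50 ± 0.07) and Nfib (0.46 ± 0.08, log2 and SE) were also higher. With every receptor as its own sum their values were 0.18 and 0.07, which edgeR did not call (adjusted p = 0.109 and 0.757). Ncam2 was lower at -0.27 ± 0.07, with 0.04 ± 0.09 for Olfr726 and -0.58 ± 0.10 for Olfr727 (log2 and SE), a call lost without female 1 (edgeR adjusted p = 0.096), female 2 (0.121) or male 1 (0.082).

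The direction of the dorsal zone markers depends on what the pair is set against. Nqo1 had 36.8, 4.92, 3.39 and 7.26 CPM with Olfr726, 6.71, 5.45, 52.1 and 9.40 with Olfr727 and 232 to 347 in the pool (log2 -4.09 ± 0.27, SE, edgeR adjusted p = 2.2e-09). Yet the pair ranked 6 and 4 from the top of the 69 receptors. The 67 others had a median of 5.93 CPM and at most 32.1 CPM, so none of them reached the pool. With each of the 69 as its own sum, the log2 difference of Nqo1 was 1.43 (edgeR adjusted p = 0.000596). A single barcode held 63.2% of the Nqo1 UMIs of Olfr726 neurons and 57.1% of those of Olfr727 neurons. Acsm4 went from -4.42 ± 0.30 against the pool (SE) to 0.17 with each of the 69 as its own sum (edgeR adjusted p = 0.635). The 67 others had at most 28.1 CPM of Acsm4, against a mean of 80.1 CPM in the pool.

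Adhesion genes in the pair were lower or did not pass: of 11 tested, 0 were higher and 4 lower (Kirrel2, Pcdh10, Pcdh19 and Epha7). Pcdh10, a protocadherin, had 60.5, 59.1, 78 and 61.7 CPM with Olfr726, 57.1, 49, 63.1 and 61.1 with Olfr727 and 92.3 to 123 in the pool (log2 -0.76 ± 0.09, SE, edgeR adjusted p = 7.6e-06), without overlap. Epha7, an Eph receptor, lost its call without female 1 (edgeR adjusted p = 0.0649). Side by side against the pool, 0 were higher and 5 lower in Olfr726 neurons, and 3 higher and 4 lower in Olfr727 neurons. S100a5 was lower in the pair at -0.51 ± 0.06, made of 0.04 ± 0.08 for Olfr726 and -1.07 ± 0.08 for Olfr727 (log2 and SE), and was not called with every receptor as its own sum (edgeR adjusted p = 0.937).

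Further genes stood far below the pool. Cartpt, a neuropeptide gene, had 47.3, 9.84, 57.7 and 14.5 CPM with Olfr726, 15.1, 16.3, 63.1 and 14.1 with Olfr727 and 519 to 728 in the pool (log2 -4.40 ± 0.20, SE, edgeR adjusted p = 4.0e-11). Mfge8, a secreted protein that bridges phagocytes to their targets, had 34.2, 44.3, 44.1 and 39.9 CPM with Olfr726, 10.1, 7.26, 11 and 4.70 with Olfr727 and 119 to 127 in the pool (log2 -2.69 ± 0.13, SE, edgeR adjusted p = 5.4e-11). Cd55, a complement regulator, had 20 ± 17.2 and 8.10 ± 6.21 CPM against 187 ± 22.9 CPM (SD, n = 4 each). Olig1, Abcd2 and Cflar were also lower, and no value of the pair reached the pool in these 6 genes. Among the 69 receptors, Cd55 ranked 31 in Olfr726 and 61 in Olfr727 neurons, at a median of 16.2 CPM over the 67 others. Cartpt ranked 58 and 61. Cartpt, Cd55 and Olig1 come from the list of receptor-dependent markers chosen on these libraries.

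**Figure D4:**
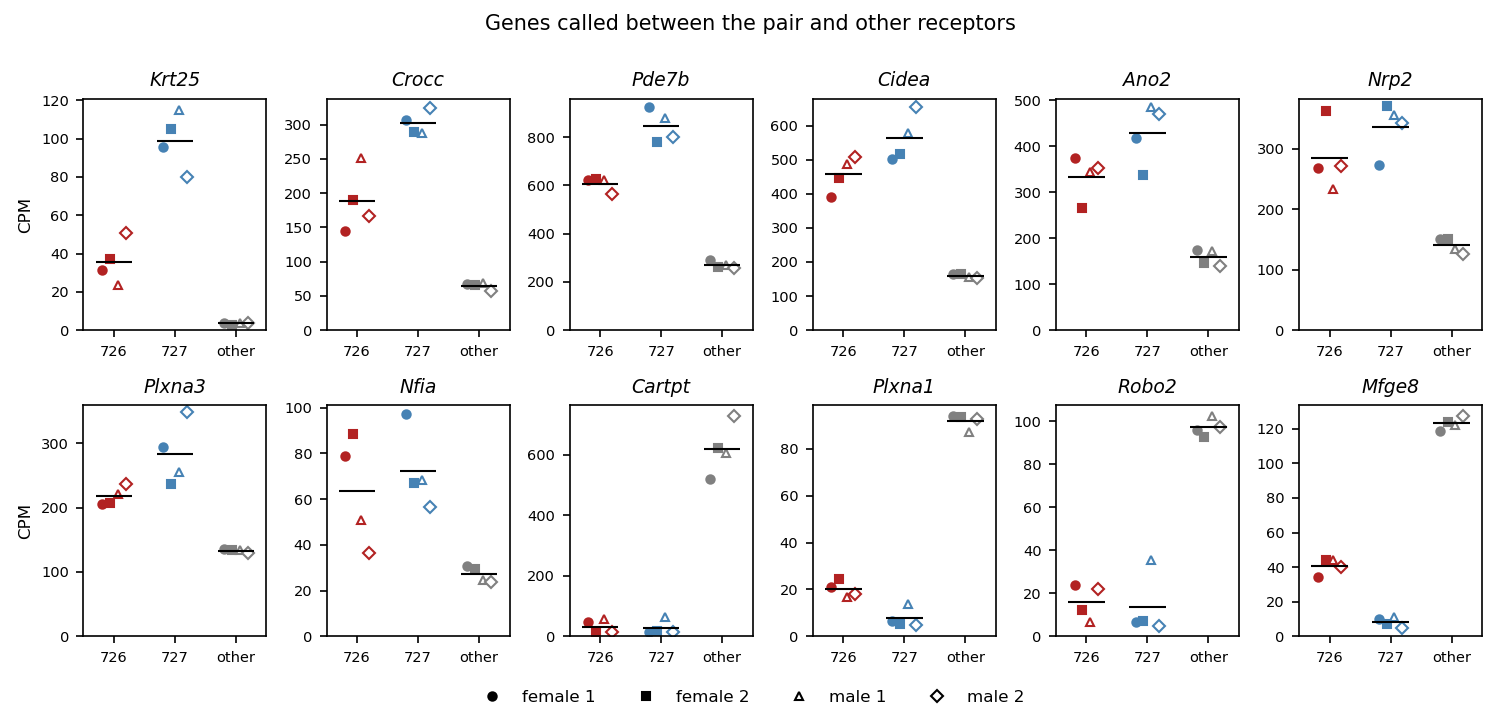
CPM (vertical axis, from 0) of 12 genes called between the pair and other receptors, in Olfr726 neurons, Olfr727 neurons and the pool of other receptors, 1 symbol a library and a line at the mean. The pair lies above the pool for Krt25, Crocc, Pde7b, Cidea, Ano2, Nrp2, Plxna3 and Nfia and below it for Cartpt, Plxna1, Robo2 and Mfge8, where Mfge8 is at 34.2 to 44.3 and 4.70 to 11 CPM against 119 to 127.

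Of 13 synaptic organisers, 3 were higher and 1 lower in the pair than in the pool. Ptprd, a receptor phosphatase that binds presynaptic partners, had 15.9 ± 9.18 and 26.2 ± 4.75 CPM against 6.98 ± 0.547 CPM (SD, n = 4 each, log2 1.57 ± 0.26, SE, edgeR adjusted p = 0.000251). The teneurins Tenm2 and Tenm4, transmembrane adhesion proteins, were higher by 0.58 ± 0.11 and 0.68 ± 0.13 (log2 and SE). In Olfr726 neurons alone, edgeR did not call Ptprd (adjusted p = 0.0906) or Tenm4 (0.187). Adgrl1, a latrophilin, was lower, a call lost without female 1 (edgeR adjusted p = 0.0737), female 2 (0.107) or male 2 (0.0951). Nrxn2 did not pass, at a log2 difference of 0.38 ± 0.21 (SE).

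The pair was then placed among the 69 receptors by the root mean square of log2 differences over 2073 genes of at least 100 CPM. Olfr726 and Olfr727 neurons were 0.238 apart, rank 17 from the lowest of 2346 receptor pairs, which ranged from 0.207 to 0.676 with a median of 0.362. For Olfr727, Olfr726 was the nearest receptor of the 68, followed by Olfr536 (0.255), Olfr741 (0.268), Olfr533 (0.275) and Olfr740 (0.290). For Olfr726, Olfr743 (0.224), Olfr536 (0.225), Olfr1281 (0.227) and Olfr742 (0.232) were nearer than Olfr727. Olfr536 had 320 neurons, Olfr743 78 and Olfr742 51, and fewer neurons bring more counting error into this measure.

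The spread within a receptor gives a scale for these distances. Female sums of Olfr726 neurons differed from male sums of the same receptor by 0.237, and those of Olfr727 by 0.301. Across receptors, Olfr726 females differed from Olfr727 males by 0.316 and Olfr727 females from Olfr726 males by 0.286. The values across receptors thus lay above that within Olfr726 and on either side of that within Olfr727. By genes called in edgeR contrasts between 2 receptors, Olfr726 differed from Olfr727 in 47 genes, rank 8 from the fewest. The 7 receptors with fewer calls were Olfr743 (13), Olfr742 (16), Olfr1206 (18), Olfr1281 (21), Olfr1509 (29), Olfr60 (29) and Olfr329 (43), which had 51 to 92 neurons against 192 for Olfr727. Counts of calls depend on how many neurons were summed and are not on one scale across receptors.

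Neighbours in the genome lay at both ends of the scale. Olfr728 was at 0.540 from Olfr726 and 0.577 from Olfr727, ranks 68 and 66 of 68, with 1057 and 1043 genes called. Olfr740 to Olfr743, with starts 354.6 to 430.9 kb away and 51.0% to 52.9% identical to the pair, ranked 1 to 17 from the nearest for Olfr726 and 3 to 16 for Olfr727. Across 68 receptors that share libraries, Pearson's r between sequence identity and distance was 0.09 for Olfr726 and 0.02 for Olfr727, and Spearman's rho was 0.32 and 0.35, given as a description. A positive value means that receptors closer in sequence lay farther apart in expression. The 68 include the other receptor of the pair at 93.1% identity, while the next highest was 62.6% for Olfr726 and 63.0% for Olfr727. Against all remaining receptors, 839 genes were called for Olfr727 and 339 for Olfr726, beside a median of 203 (range 25 to 1729) over the 69.

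**Figure D5:**
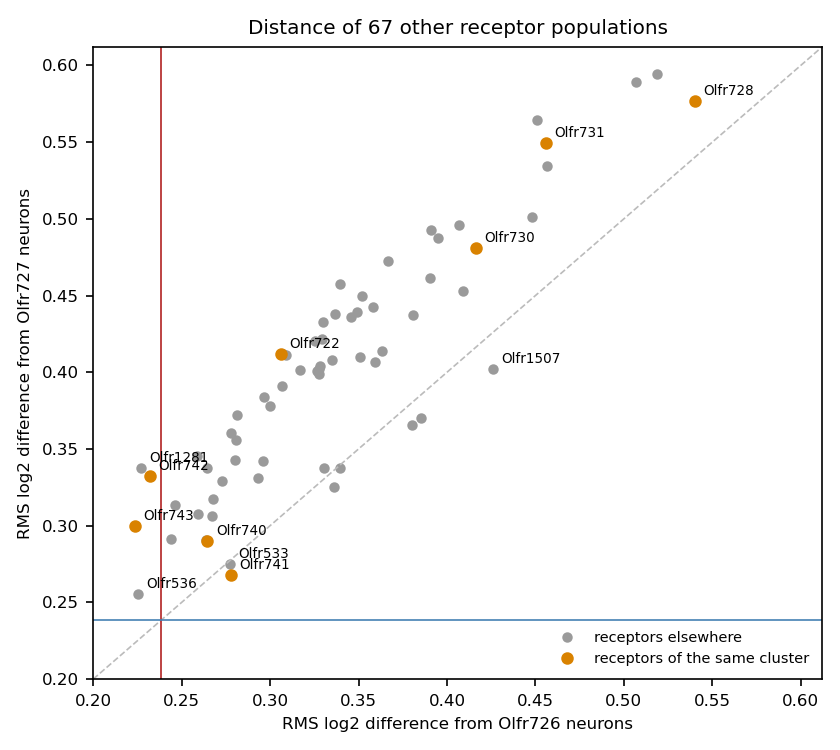
Root mean square log2 difference of 67 other receptor populations from Olfr726 neurons (horizontal axis) and from Olfr727 neurons (vertical axis), with receptors of the surrounding cluster in orange. The lines mark the distance of Olfr726 and Olfr727 from each other (0.238), and no population lies below the horizontal line, while Olfr743, Olfr536, Olfr1281 and Olfr742 lie left of the vertical one.

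Between the sexes, edgeR called 25 of 8627 genes (0.290%) in the summed neurons of the pair. Of these, 3 (0.0348%) were higher in the male libraries and 22 (0.255%) in the female ones, 535 genes had an unadjusted p under 0.05, and DESeq2 called 1. The 3 were the Y-linked genes Eif2s3y, Uty and Kdm5d, each at 0 in both female libraries. Among the 22 were genes of secretion and immunity, such as Bpifa1, Reg3g, Wfdc2 and Cd74.

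The barcode with the most UMIs of the gene was a scored doublet for 17 of the 22, and for 8 of them 1 barcode held over 25% of the UMIs. For Bpifa1, a secreted airway protein, the pair had 2353, 324, 209 and 244 CPM and 1 scored doublet of female 1 held 71.6% of the UMIs. For Reg3g, an antimicrobial lectin, that share was 85.2%. Summed markers of respiratory and gland cells were 2348, 942.5, 1242 and 1648 CPM in Olfr726 neurons and 5224, 2200, 641.6 and 817.8 CPM in Olfr727 neurons, at 1932 to 2829 CPM in the others, with 1 of 7 (Obp2a) at 0 in both receptors.

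With scored doublets removed, edgeR called 14 genes between the sexes, 5 higher and 9 lower in the male libraries. Of these, 6 were among the 25, namely the 3 Y-linked genes, X-linked Eif2s3x, Tmem59l and the hormone gene Avp. Tmem59l, a membrane protein of neurons, had 96.3, 96.1, 41 and 38.9 CPM in the pair (log2 -1.23 ± 0.22, SE, edgeR adjusted p = 0.00798), against 49, 50.5, 54.7 and 54 in other receptors. Eif2s3x had 141, 135, 72.8 and 75.8 CPM (log2 -0.86 ± 0.17, SE, edgeR adjusted p = 0.0221), against 136, 139, 96.6 and 97 in other receptors. In both genes the male libraries of the pair lay below the female ones. Avp had 114, 198, 4.55 and 49.2 CPM, and 1 barcode of female 2 held 50.9% of its UMIs. Avp was also lower in Olfr726 than in Olfr727 neurons (log2 -5.37 ± 0.95, SE, edgeR adjusted p = 0.00493), on UMIs of which 1 barcode held 51.9% in Olfr727 neurons.

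The difference between Olfr726 and Olfr727 itself changed with sex in few genes. The interaction of sex and receptor was called by edgeR for 3 of 6493 genes (0.0462%), Cldn7, Krt8 and Dnajb1, with 363 at an unadjusted p under 0.05 and 0 called by DESeq2. With scored doublets removed edgeR called 0. Of the guidance and synaptic organiser lists, 0 genes passed between the sexes by edgeR, 0 had an unadjusted p under 0.05 and DESeq2 called 0. Of the immature neuron list 0 passed edgeR, 0 had an unadjusted p under 0.05 and DESeq2 called 0. Of the transduction list 0 passed and 1 had an unadjusted p under 0.05. With scored doublets removed, edgeR called 1 gene of the immature neuron list, 1 of the transduction list and 1 calcium-binding gene between the sexes. Dpysl3, of immature neurons, was lower in the male libraries at -1.20 on the log2 scale (adjusted p = 0.0412), Calb2 was also lower at -1.001 (adjusted p = 0.0275) and Gng13 was higher at 0.43 (adjusted p = 0.0149).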

How the data were processed

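The authors deposited UMI counts for every gene in each barcode of 4 libraries, not normalized. Cell Ranger was version 6.0.2 per the file headers and 5.0.1, with the build mm10, per the submitters' processing notes, which differ. Of 22399 gene IDs, 99.5% matched GENCODE M21. Receptors were the 1103 genes with an Olfr symbol that are not pseudogenes.

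UMIs were summed per library and group (Olfr726, Olfr727, all other assigned barcodes) and tested with edgeR 4.0.16 in R 4.3.3 (quasi-likelihood, TMM scaling, filterByExpr, Benjamini-Hochberg, threshold 0.05). Library was a block, except between the sexes. Receptors, mitochondrial genes, Omp and Cyp2g1 entered the totals and not the tests. Checked on simulated counts of Olfr726 against Olfr727 over 7486 genes, the test recovered 20.9% of 1.5-fold, 67.2% of 2-fold and 95.5% of 4-fold changes, and 2.4% of its calls were false. In the simulation every gene had the same spread, and libraries differed only in depth. Its shares therefore need not hold for the real counts, where spread differs between genes and single barcodes can hold many UMIs of a gene. Doublets were scored against simulated ones, and the highest scores of each library (8.20% to 8.62% of barcodes) were marked.

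Named genes are those of the lists, and up to 12 in each direction with the largest fold change among called genes of at least 50 CPM that went the same way in 4 of 4 libraries. Genes named for sex were chosen after their values were seen. The members and lists were chosen with earlier results of these data known. Alternatives were DESeq2 1.42.0, other scaling and filters, stricter assignment, thinning to 4000 UMIs, removal of doublets, every receptor as its own sum, a replicate block and leaving out each library. The fit with every receptor as its own sum used 69 of 960 receptors, those with at least 10 neurons in every library. It took a single dispersion for all genes where the main fit estimated it per gene, so calls lost there can reflect either change. Removal of doublets between the sexes and counting receptor pseudogenes were chosen after seeing the data. Some genes are not reported here.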

Additional observations from a re-analysis of the deposited data

Results flagged for a closer look

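Among 174 groups of 4 libraries checked for 1 library far from the other 3, 15 were marked, where chance marks about 1 in 20 groups. In Olfr727 neurons of male 1, 4 genes that are low in the pair were high: Abcd2 at 38.39 CPM, Apoe at 95.97 CPM, Cartpt at 63.07 CPM and Robo2 at 35.65 CPM. Over all Olfr727 neurons, a single barcode held 32%, 70.2%, 38.6% and 18.2% of the UMIs of these genes in the same order. The values of male 1 rest on 14, 35, 23 and 13 UMIs. Nqo1 was at 52.1 CPM in the same library, and at 36.82 CPM in Olfr726 neurons of female 1. In Olfr727 neurons of male 2, Stoml3 was high at 18710 CPM, Metrnl low at 9.4 CPM and Olig1 at 0 CPM. Bpifa1 was at 3677 CPM in Olfr727 neurons of female 1 and Adgrl1 low at 34.49 CPM in those of female 2. In Olfr726 neurons, Fndc1 was high at 68.9 CPM and Hbb-bs at 17.22 CPM in female 2, Pcdh10 was high at 78.05 CPM in male 1 and Pde7b low at 562.8 CPM in male 2.

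The difference between Olfr726 and Olfr727 neurons changed with sex in 3 genes by edgeR's interaction test. The male difference exceeded the female one by 2.02 for Dnajb1 (adjusted p = 0.0354), by 5.165 for Cldn7 (adjusted p = 0.0094) and by 5.137 for Krt8 (adjusted p = 0.039), on the log2 scale. The barcode with the most UMIs was a scored doublet for each of the 3.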

How the results depend on the processing

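The 94 genes called between Olfr726 and Olfr727 became 187 with no filter beyond 1 count, 58 with barcodes thinned to 4000 UMIs, 192 without scored doublets and 42 with every receptor as its own sum, and 51 to 70 when 1 library was left out. They became 47 in a fit of the sums of Olfr726 and Olfr727 alone, without the pool. Thinning gave 544 genes for the pair against other receptors, 221 for Olfr726 and 495 for Olfr727 against other receptors, and every receptor as its own sum gave 186 for Olfr726, 147 higher and 39 lower. Leaving out 1 library gave 202 to 262 for Olfr726 against other receptors. Between the sexes, no filter gave 124, DESeq2 1 and removal of scored doublets 14, and leaving out 1 library gave 36 to 101. The interaction count was 105 with no filter, 0 with DESeq2 and 0 without scored doublets, and 0 to 64 when 1 library was left out. With each of the 69 receptors as its own sum, Acsm4 (0.17), Bpifa1 (0.21) and Nqo1 (1.43) turned from lower to higher in the pair. The cause was not tested. Of 39 named calls between the receptors, 15 were lost with every receptor as its own sum, and 8 of the 34 still tested were lost on thinning. Of 69 between the pair and the pool, 14 were lost with every receptor as its own sum, beside the 3 that changed direction. With 57 to 111 members in a library, genes under 50 CPM rest on few UMIs.

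With the replicate number as a block, 78 genes were called between the sexes. Deviations of same-numbered libraries had a correlation of 0.0165, and with 2 pairs the samples share only a number.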
